A study of Mus musculus with 13 samples.

Results

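Glycolysis and the entry of its product pyruvate into mitochondria were followed through 32 genes in mouse fetal male germ cells of 4 Tet1 genotypes. The genes were taken as a named list of transporters, enzymes and regulators of the pathway. All 32 symbols were found among the 35976 of the deposited count table. They comprise 2 glucose transporters, 10 genes for the steps from hexokinase to triose phosphate, 7 for those from glyceraldehyde phosphate to pyruvate, 4 for lactate dehydrogenase and lactate transport, 6 for the pyruvate carrier and pyruvate dehydrogenase, and 3 pyruvate dehydrogenase kinases. The cells, primordial germ cells that later give rise to sperm or eggs, came from male embryos at E14.5 and had been sorted by an Oct4-GFP reporter, which cells of every group carry. Messenger RNA of 5000 cells per sample was sequenced in 3 libraries for each genotype. WT is wild type for Tet1, whose protein oxidises 5-methylcytosine in DNA, and KO is a knockout. The HxD allele is known to make a protein without catalytic activity, and the V allele one that stops at 5-hydroxymethylcytosine. The labels give neither the strain, nor whether an allele is homozygous, nor the extent of the deletion in the knockout. They do not say whether replicates came from separate embryos, and p-values therefore reflect only the spread among these samples, which may be technical.

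Glycolysis splits glucose into pyruvate in the cytosol and yields ATP without oxygen. Pyruvate is then either reduced to lactate by lactate dehydrogenase and exported, or carried into mitochondria, where the pyruvate dehydrogenase complex turns it into acetyl-CoA for the tricarboxylic acid cycle. Pyruvate dehydrogenase kinases phosphorylate that complex and switch it off, so that they hold carbon back from mitochondria. Most steps have several isozymes encoded by separate genes, and fetal germ cells are known to change their energy metabolism as they leave the pluripotent state and, in males, enter mitotic arrest.

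Sequencing gave between 13584484 and 29641963 counts a library. WT 3 and V 3 stood apart, with 104 and 33 zero counts among the 9250 genes that averaged at least 8 CPM, as did HxD 2 with 36, while the other libraries had 0 to 22. CPM is a gene's count scaled to a common library total, here after TMM scaling, which adjusts for differences in composition. Tet1 itself had 213, 201 and 225 CPM in the KO libraries against 589 to 639 in WT, so the labels held for KO (edgeR log2 fold change -1.51, SE 0.17, adjusted p = 1.41e-05). The summed level of 10 germ cell markers was 4451 to 4695 CPM in WT, 3292 to 3574 in KO, 3082 to 4007 in HxD and 3610 to 3937 in V. Most of that difference lay in Dazl, with 1605 to 1906 CPM in WT and 576 to 1172 in the mutants, and the other 9 markers summed to 2546 to 2942 CPM in WT, 2448 to 2817 in KO, 2506 to 3063 in HxD and 2765 to 2937 in V, overlapping. Of the 10 markers, 5 had a log2 fold change above 0 in each mutant. edgeR called Mael and Dazl lower in KO and in HxD and called none of the 10 in V. Among those not called by edgeR, Tfap2c had 48.2 to 96.3 CPM in WT and 114 to 155 in the mutants. Ddx4 had 772 to 981 in WT, 465 to 591 in KO, 473 to 683 in HxD and 613 to 874 in V. Pou5f1, which encodes Oct4, had 299 to 341 in WT, 325 to 398 in KO, 371 to 526 in HxD and 430 to 591 in V. DESeq2 called Mael, Ddx4 and Dazl lower in KO, and Mael and Dazl lower and Pou5f1 higher in HxD. In V it called Dazl lower and Pou5f1 higher. Nanos2 was at 0 in WT 3, KO 2, HxD 2 and V 2. The 10 Sertoli cell markers summed to 13.0 to 171 CPM except in V 2, where they reached 477 with Amh at 216. Sox9 and Cst9 were at 0 in every WT library, and Fshr at 0 in every library except WT 1. In V, Sox9 had 0.72 to 9.14 CPM and Cst9 1.52 to 23.6, above 0 in every library. DESeq2 called Cst9 higher in V (adjusted p = 0.0196) and no other Sertoli marker against WT. V 2 was also the only library with counts for all 7 macrophage markers. Lists for interstitial, Leydig, macrophage and erythroid cells did not exceed 34.6 summed CPM in any library, and of the 132 to 289 summed CPM of endothelial markers most came from Pecam1. The part of these differences in the results for Hk1, Pfkp, Ldhb and the other members was not tested.

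Across the pathway, Pdk1 was the only member whose transcript level changed by the test over all genes, and it did so only in the comparison of KO with WT. Pdk1 encodes pyruvate dehydrogenase kinase 1, which is known as a target of hypoxia-inducible factors. Of the 32 members, 31 passed the filter on low counts, and Eno2 did not, with a count in V 2 alone. In KO, edgeR's quasi-likelihood test with Benjamini-Hochberg adjustment at 0.05 called 1 of 31 members lower, against 0.15% of all 14702 genes tested, and 0 higher, against 0.068%. In HxD it called 0 members in either direction, against 0.0136% of all genes higher and 0.0204% lower. In V it called 0 members, as it called 0% of all genes. DESeq2 called the same single member in KO, and 0 members in HxD and in V. Over all genes DESeq2 called more than edgeR in each of these comparisons, with counts given in the section on processing. At an unadjusted p under 0.05, 3 members were higher and 1 lower in KO (background 3.75% and 4.54%), 2 higher and 2 lower in HxD (3.42% and 4.82%), and 1 higher and 2 lower in V (2.85% and 3.2%). In either direction these were 4 members in KO (8.3% of all genes), 4 in HxD (8.24%) and 3 in V (6.05%), and the adjusted test called 0.218% of all genes in KO and 0.034% in HxD. The log2 fold change was above 0 for 18 of 31 members in KO (50.3% of all genes), 14 in HxD (47.6%) and 18 in V (51%). The median log2 fold change of the 31 members was 0.10 in KO, -0.03 in HxD and 0.06 in V, beside 0.00, -0.02 and 0.01 over all genes. The 3 comparisons share the WT libraries and so are not independent of each other. These are bulk libraries, in which fewer cells of a type and less RNA per cell cannot be told apart.

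**Figure D1:**
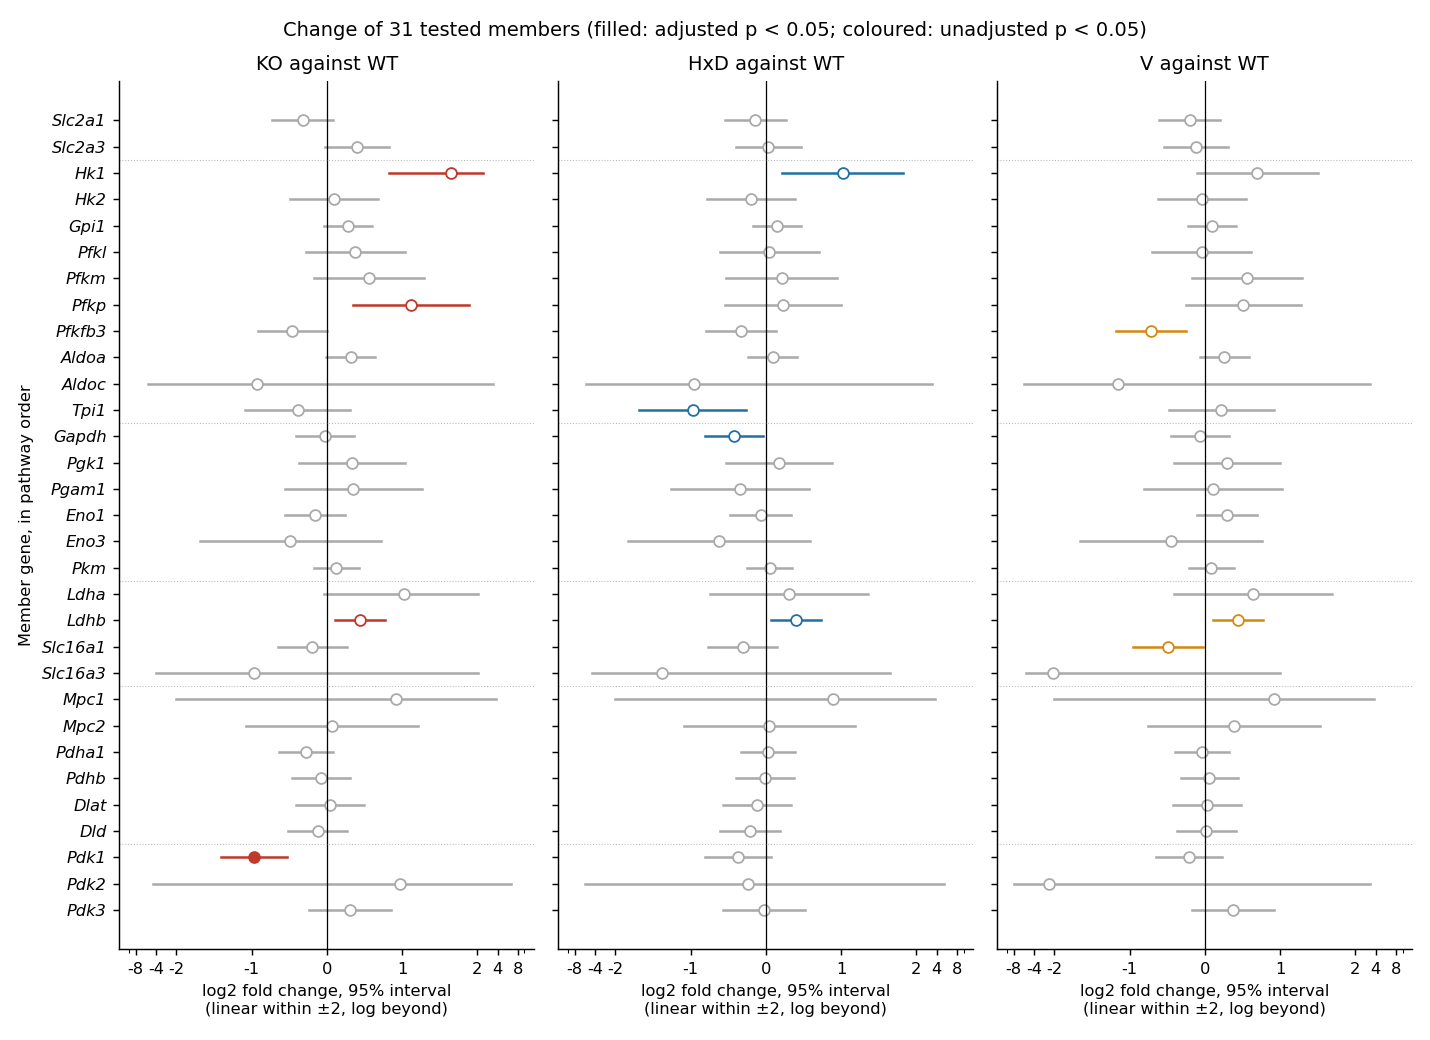
Log2 fold change of the 31 tested members in KO, HxD and V against WT, in pathway order from glucose transporters to pyruvate dehydrogenase kinases, with 95% intervals from edgeR on an axis that is linear within ±2 and logarithmic beyond. Pdk1 in KO, at -0.96, is the only filled point, and Ldhb lies at 0.41 to 0.44 in all 3 comparisons.

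In WT the transcripts of the pathway differed by orders of magnitude, and pyruvate kinase stood at the top. Levels of different genes are compared here as CPM per kb of exon. Exon lengths were merged over all transcripts of a gene in GENCODE M21, an annotation that need not be the one used for the counts. Merging includes forms that do not code for protein. The merged length therefore exceeds that of the coding transcripts more in some genes than in others. Pkm, the pyruvate kinase gene that makes pyruvate from phosphoenolpyruvate, had 281 to 378 CPM per kb in the 3 WT libraries. Ldhb, which encodes the lactate dehydrogenase subunit known to favour pyruvate, followed with 166 to 218, and Aldoa, the aldolase that cleaves fructose bisphosphate, with 112 to 157. On these merged lengths the WT ranges do not overlap for Pkm and Ldhb, or for Ldhb and Aldoa. The order of Ldhb and Aldoa depends on the length used. Merged exons span 1570 bases for Ldhb and 3710 for Aldoa, against 1640 and 3107 distinct stretches of 75 bases in protein-coding transcripts. Without length, Aldoa had 414 to 582 CPM in WT and Ldhb 260 to 342. Ldha, which encodes the subunit known to favour lactate, had only 2.998 to 5.877 CPM per kb, so Ldhb reads outnumbered Ldha reads 17.6-fold to 26.6-fold in WT before any adjustment for length. The 4 members that encode subunits of the pyruvate dehydrogenase complex lay close together on merged lengths. Mean levels were 39.8 for Dld, 41.9 for Dlat, 46.1 for Pdhb and 46.7 for Pdha1, and the WT ranges of neighbours in that order overlap. That closeness depends on length, as merged exons span 3861 bases for Pdhb and 4886 for Dlat, against 1439 and 3961 such stretches. Pdhx, a further subunit gene and no member, had a mean of 48.5 CPM in WT, beside 147 for Dld and 204 for Dlat. The 2 genes of the mitochondrial pyruvate carrier had means of 1.23 CPM per kb for Mpc1 and 2.63 for Mpc2. The merged exons of Mpc2 span 7344 bases, against 951 distinct stretches of 75 bases in its protein-coding transcripts, so 2.63 may be too low. Without length their means were 2.56 and 19.3 CPM, below those of the 4 subunit genes. Pdk2 had a mean of 0.53 CPM per kb and Eno2, the neuronal enolase, was at 0 in WT.

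Some members share sequence with other genes, and their levels are uncertain for that reason. Of the distinct stretches of 75 bases in a member's protein-coding transcripts, the share also found in transcripts of other genes was 67.5% for Pgk1, 55.5% for Gapdh, 44.3% for Eno1 and 40.6% for Pgam1. For Gapdh those other genes numbered 121, among them Gapdh-ps14 and Gapdh-ps15. For 15 members, Pdk1, Slc2a3, Hk2, Pfkfb3, Dlat and Dld among them, the share was 0%, and for Hk1 it was 1.22%. Neither the read length nor the treatment of reads with several matches was given in the sources used here, so reads lost from the members with copies cannot be counted.

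**Figure D2:**
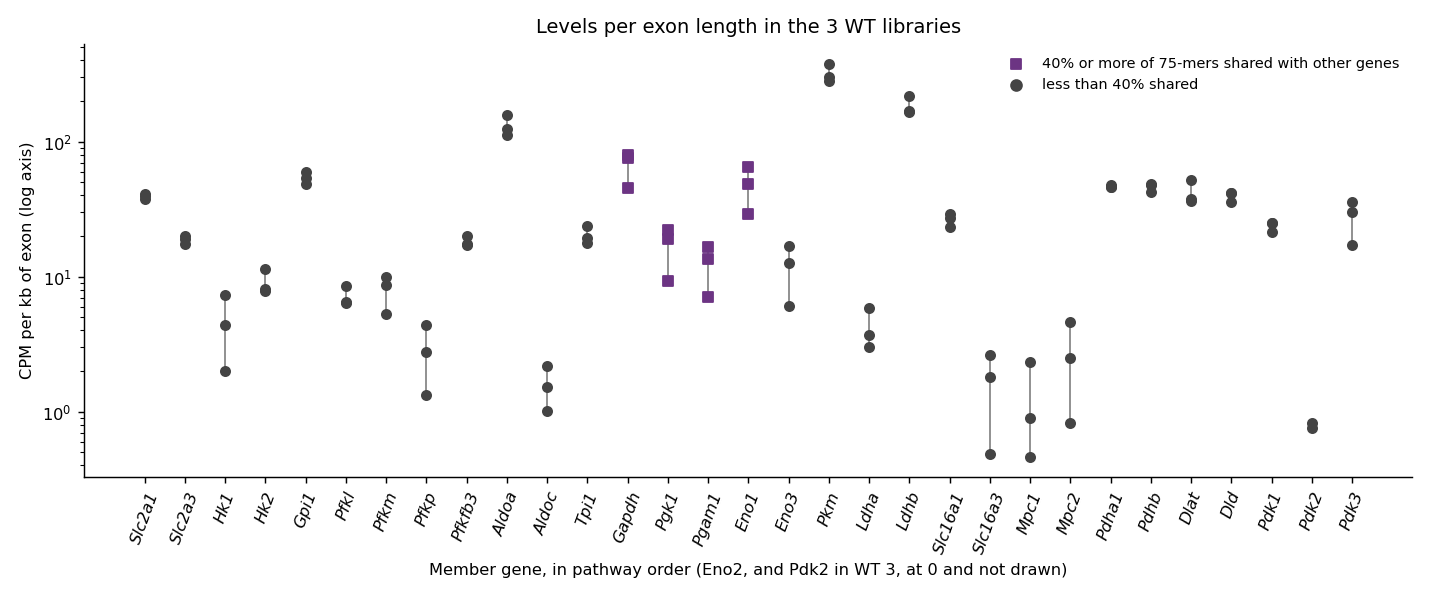
CPM per kb of exon in the 3 WT libraries for each member in pathway order, on a log axis, with squares for members that share 40% or more of their 75-base stretches with other genes. Pkm, Ldhb and Aldoa are the highest on merged exon lengths, and the squares are Gapdh, Pgk1, Pgam1 and Eno1.

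Glucose enters cells through facilitative transporters, of which Slc2a1 (GLUT1) and Slc2a3 (GLUT3) were measured. Slc2a3 had 126, 145 and 137 CPM in WT, 187, 138 and 213 in KO, 179, 109 and 129 in HxD and 117, 158 and 102 in V. KO 1 and KO 3 exceeded every WT library and KO 2 did not. The log2 fold change in KO was 0.40 (95% interval -0.03 to 0.83, edgeR adjusted p = 0.623), in HxD 0.03 (-0.39 to 0.46, edgeR adjusted p = 1) and in V -0.12 (-0.54 to 0.31, edgeR adjusted p = 1). Slc2a1 had 131 to 144 CPM in WT and 87.7 to 127 in KO, ranges that do not touch, with a log2 fold change of -0.32 (95% interval -0.72 to 0.09). The Slc2a3 count was 0.87, 1.05 and 1.05 times the Slc2a1 count in WT and 2.14, 1.09 and 1.82 times in KO, and every KO ratio exceeded every WT ratio. An exact two-sided permutation test gave p = 0.1 for that difference, the smallest p that 3 libraries against 3 allow, and p = 0.6 after adjustment over the 12 ratio comparisons made. In HxD the ratio was 0.99 to 1.20 and in V 0.94 to 1.24, both overlapping WT.

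Of the 10 genes for the steps from hexokinase to triose phosphate, 0 were called in any comparison, and 7 had a log2 fold change above 0 in KO, 6 in HxD and 6 in V, with medians of 0.30, 0.07 and 0.16. Hexokinases phosphorylate glucose and thereby trap it in the cell. Hk1, the hexokinase of most tissues, had 17.0, 62.6 and 37.1 CPM in WT, 186, 64.9 and 114 in KO, 77.5, 87.1 and 72.2 in HxD and 28.9, 115 and 44.99 in V. Every KO and every HxD library exceeded every WT library, KO 2 by a small margin over WT 2, while V overlapped WT. The log2 fold change was 1.65 in KO (SE 0.40, edgeR adjusted p = 0.0844), 1.02 in HxD (SE 0.40, edgeR adjusted p = 0.516) and 0.70 in V (95% interval -0.11 to 1.504). The KO difference passed the threshold when WT replicate 2 was left out (2.17, edgeR adjusted p = 0.000557), and likewise without KO replicate 2 (1.95, 0.000472) or KO replicate 3 (1.69, 0.0275), and was 1.20 without KO replicate 1 (0.245). Hk2, the insulin-responsive hexokinase of muscle and of many proliferating cells, had 47.0 to 67.4 CPM in WT and 41.5 to 75.5 in the mutants, with log2 fold changes of 0.10 in KO, -0.19 in HxD and -0.04 in V. Hk2 counts were 0.77 to 2.76 times Hk1 counts in WT, 0.37 to 0.87 times in KO, 0.54 to 0.67 times in HxD and 0.54 to 1.63 times in V. The HxD ratios lay below all WT ratios (exact permutation p = 0.1, adjusted p = 0.6), and the KO ratios overlapped WT at KO 2 (exact permutation p = 0.2, adjusted p = 0.72).

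Hk1 has 2 promoter windows in RefSeq, each reaching from 250 bases before to 50 bases after an annotated start, and they are printed because the gene counts cannot tell transcripts from the 2 starts apart. The earlier one (GRCm38.p6, chr10:62379859-62380158, minus strand) holds 1 CpG dinucleotide, the site that TET1 acts on when methylated, and the later one (chr10:62340372-62340671, minus strand) holds 20, against a median of 7 over all 32851 windows of the table. Capitals mark ACGTG or GCGTG on either strand, the core letters of the hypoxia response element, some of which overlap each other.
Hk1 earlier start: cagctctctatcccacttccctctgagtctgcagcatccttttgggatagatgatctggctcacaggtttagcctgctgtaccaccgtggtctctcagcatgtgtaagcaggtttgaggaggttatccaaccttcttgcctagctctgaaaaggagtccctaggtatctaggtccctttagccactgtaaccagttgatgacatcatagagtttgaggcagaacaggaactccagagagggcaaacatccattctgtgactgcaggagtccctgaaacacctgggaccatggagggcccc
Hk1 later start: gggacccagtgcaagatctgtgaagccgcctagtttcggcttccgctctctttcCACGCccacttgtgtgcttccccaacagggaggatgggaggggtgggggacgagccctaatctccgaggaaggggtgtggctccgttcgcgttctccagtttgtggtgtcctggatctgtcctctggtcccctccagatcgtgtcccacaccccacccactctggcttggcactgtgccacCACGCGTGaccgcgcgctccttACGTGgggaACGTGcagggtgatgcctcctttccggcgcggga
The later window holds 2 matches to ACGTG and 3 to GCGTG, and the earlier one holds 0 of either. The last 30 bases of each window are found in a GENCODE transcript of Hk1, which sets their orientation.

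Phosphofructokinase commits the sugar to glycolysis, and Pfkfb3 makes its activator fructose 2,6-bisphosphate. Pfkp, the platelet-type subunit, had 17.8, 58.3 and 37.0 CPM in WT and 131, 50.7 and 64.9 in KO, with KO 1 far above the rest and KO 2 within the WT range (log2 fold change 1.12, SE 0.38, edgeR adjusted p = 0.328). Without KO replicate 1 the value was 0.61, and without WT replicate 2 it was 1.58 and past the threshold (edgeR adjusted p = 0.0323). Pfkp had 31.3 to 59.1 CPM in HxD and 39.4 to 81.2 in V. Pfkl, the liver-type subunit, and Pfkm, the muscle-type subunit, had log2 fold changes of 0.38 and 0.56 in KO, 0.05 and 0.21 in HxD, and -0.04 and 0.56 in V, all with 95% intervals that include 0. The Pfkp to Pfkl ratio overlapped WT in each mutant.

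Pfkfb3 had 152, 129 and 131 CPM in WT, 112, 81.4 and 107 in KO, 120, 128 and 78.2 in HxD and 63.5, 109 and 77.4 in V. All 9 mutant libraries lay below all 3 WT libraries, although HxD 2 lay within 1 CPM of WT 2. The mutants were compared with the same WT libraries, and the share of all genes with this joint pattern was not counted. Its log2 fold change was -0.46 in KO (95% interval -0.92 to 0.01), -0.33 in HxD (-0.79 to 0.13) and -0.72 in V (SE 0.23, edgeR adjusted p = 0.579). The gene passed the adjusted threshold in none of these. Counted over members, KO libraries lay wholly above WT for 3 of 31 (Hk1, Gpi1 and Ldhb) and wholly below for 4 (Slc2a1, Pfkfb3, Pdha1 and Pdk1), where 8.13% and 8.15% of all genes did so. HxD lay wholly above WT for Hk1 alone and below for Pfkfb3 and Tpi1 (background 5.26% and 7.22%). V lay wholly above for Pfkm and Ldhb and below for Slc2a1 and Pfkfb3 (background 5.75% and 6.06%).

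None of the remaining genes of the upper pathway was called. Gpi1, which converts glucose 6-phosphate to fructose 6-phosphate, had 314 to 382 CPM in WT and 408 to 445 in KO (log2 fold change 0.28, 95% interval -0.03 to 0.60). Aldoa had 414, 582 and 461 CPM in WT, 527, 654 and 636 in KO, 456, 500 and 596 in HxD and 622, 553 and 566 in V, and each mutant overlapped WT. Its log2 fold changes were 0.32 in KO (95% interval -0.01 to 0.64, edgeR adjusted p = 0.606), 0.09 in HxD (-0.24 to 0.41, edgeR adjusted p = 0.985) and 0.26 in V (-0.07 to 0.58, edgeR adjusted p = 0.846). Aldoc, the brain-type aldolase, had at most 7.95 CPM and was at 0 in KO 1, HxD 1, HxD 2 and V 3. Tpi1, which interconverts the triose phosphates, had 53.2, 65.3 and 48.8 CPM in WT, 24.2, 49.997 and 53.7 in KO, 19.7, 41.5 and 24.1 in HxD and 95.6, 55.7 and 43.6 in V. HxD lay below WT in all 3 libraries (log2 fold change -0.97, SE 0.35, edgeR adjusted p = 0.459). V against HxD gave 1.19 (SE 0.35, edgeR adjusted p = 0.861).

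**Figure D3:**
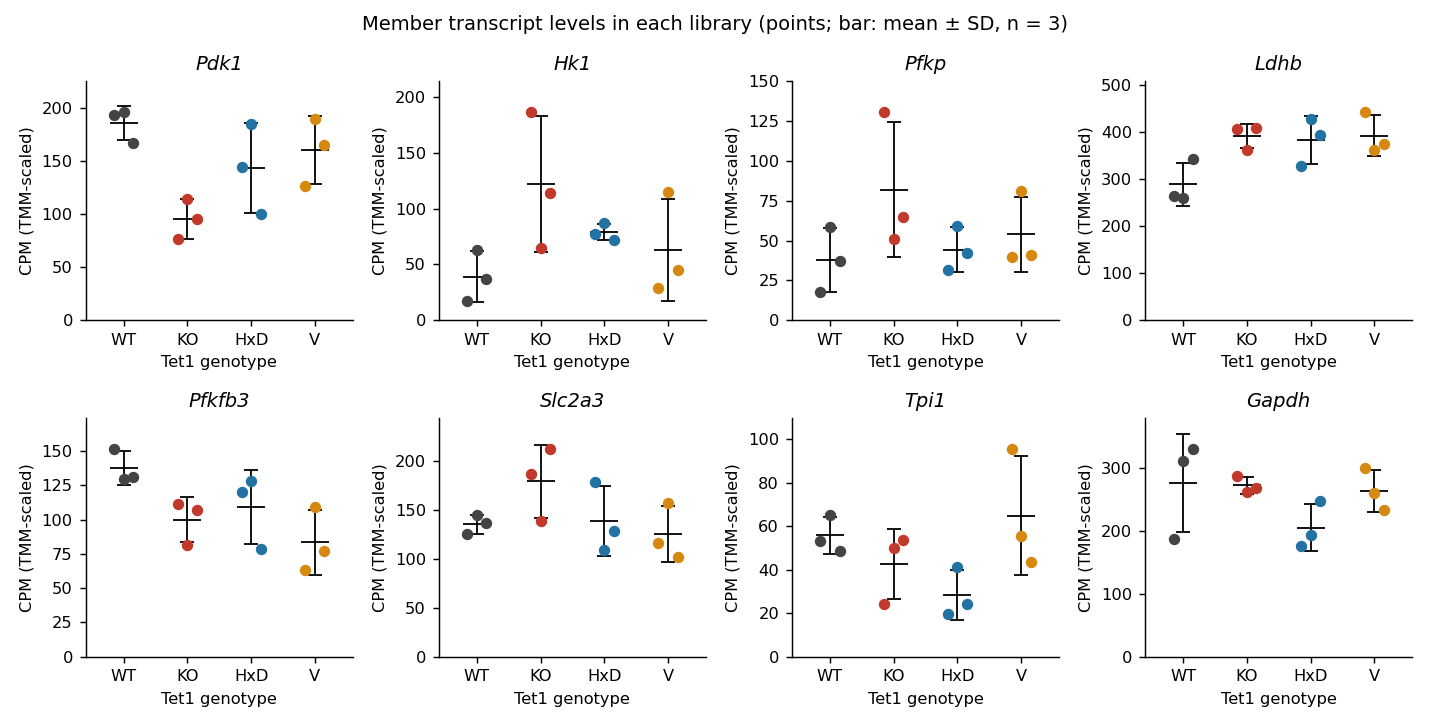
CPM in each of the 12 libraries by Tet1 genotype for 8 members, with the mean and SD of 3 libraries. The KO points of Pdk1 (76.1 to 114 CPM) lie below all WT points, and WT and KO points of Hk1 are widely spread.

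The later steps of glycolysis, a stretch that recovers ATP and ends in pyruvate, were represented by Gapdh, Pgk1, Pgam1, the enolases and Pkm. Pkm had 1495, 1890 and 1406 CPM in WT, 1521, 1828 and 1890 in KO, 1485, 1639 and 1836 in HxD and 1816, 1774 and 1496 in V. The groups overlap throughout, and the log2 fold changes were 0.13 in KO (95% interval -0.17 to 0.43), 0.05 in HxD (-0.25 to 0.35) and 0.09 in V (-0.22 to 0.39), with edgeR adjusted p of 0.969, 1 and 1. Pkm made up 27.3% to 34.0% of the summed CPM of the 32 members, and that sum was 4640 to 5619 in WT, 5411 to 5773 in KO, 4707 to 5396 in HxD and 5125 to 5706 in V. Pkm transcripts are spliced into alternative forms, M1 and M2, which gene counts do not separate.

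Gapdh, the glyceraldehyde phosphate dehydrogenase often used as a reference transcript, had 187, 311 and 331 CPM in WT, 288, 262 and 268 in KO, 176, 193 and 247 in HxD and 300, 260 and 233 in V. WT 1 lay within the HxD range, and the log2 fold change in HxD was -0.43 (SE 0.19, edgeR adjusted p = 0.58). In KO and V it was -0.02 and -0.06. Eno1, the enolase of most cells, had 156 to 347 CPM in WT, 213 to 243 in KO, 220 to 262 in HxD and 292 to 345 in V, and V against KO gave a log2 fold change of 0.45 (SE 0.20, edgeR adjusted p = 1) with no overlap. Pgk1, which makes ATP from bisphosphoglycerate, had log2 fold changes of 0.33, 0.17 and 0.30 in KO, HxD and V, and Pgam1, the phosphoglycerate mutase, 0.35, -0.34 and 0.11. Eno3, the muscle enolase, had 8.50 to 29.4 CPM over all libraries. As stated above, Gapdh, Pgk1, Pgam1 and Eno1 share much of their sequence with other genes.

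Lactate dehydrogenase connects pyruvate with lactate. Ldhb had 264, 260 and 342 CPM in WT, 405, 362 and 408 in KO, 327, 427 and 393 in HxD and 442, 361 and 374 in V. All KO and V libraries exceeded all WT libraries, and HxD 1 lay below WT 3. The log2 fold changes were 0.44 in KO (SE 0.16, edgeR adjusted p = 0.389), 0.41 in HxD (SE 0.16, edgeR adjusted p = 0.536) and 0.44 in V (SE 0.16, edgeR adjusted p = 0.708), and none passed the threshold. Ldha had 9.92, 12.1 and 19.5 CPM in WT, 14.3, 40.4 and 29.9 in KO, 15.3, 12.6 and 23.6 in HxD and 10.9, 27.5 and 26.6 in V, with a log2 fold change of 1.03 in KO (95% interval -0.03 to 2.08). The Ldhb count was 17.6 to 26.6 times the Ldha count in WT, 8.96 to 28.3 times in KO, 16.6 to 33.8 times in HxD and 13.2 to 40.4 times in V, all overlapping. The Ldhb promoter window (GRCm38.p6, chr6:142507908-142508207, minus strand) is printed because Ldhb was the only member with an unadjusted p under 0.05 in all 3 comparisons with WT, which share the WT libraries, and capitals again mark ACGTG or GCGTG on either strand.
Ldhb: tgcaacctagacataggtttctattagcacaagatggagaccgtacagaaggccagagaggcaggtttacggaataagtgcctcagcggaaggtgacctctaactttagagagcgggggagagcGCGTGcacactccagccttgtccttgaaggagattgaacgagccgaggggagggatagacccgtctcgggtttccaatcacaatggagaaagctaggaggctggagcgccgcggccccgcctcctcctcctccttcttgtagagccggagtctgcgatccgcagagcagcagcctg
It holds 17 CpG dinucleotides, 1 match to GCGTG and 0 to ACGTG.

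Monocarboxylate transporters carry lactate and pyruvate across the plasma membrane. Slc16a1 (MCT1) had 103, 121 and 129 CPM in WT, 100, 107 and 101 in KO, 69.0, 114 and 102 in HxD and 68.1, 111 and 71.9 in V. V 2 lay within the WT range, and the log2 fold change in V was -0.49 (SE 0.23, edgeR adjusted p = 0.818). In KO and HxD it was -0.19 and -0.31, with 95% intervals that include 0. Slc16a3 (MCT4), a lactate exporter, had 2.59 to 13.98 CPM in WT and at most 5.08 in any mutant library, and its intervals span several log2 units.

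Pyruvate crosses the inner mitochondrial membrane through the Mpc1 and Mpc2 carrier and is oxidised by a complex whose E1 subunits are encoded by Pdha1 and Pdhb, E2 by Dlat and E3 by Dld. Dlat had 183, 178 and 253 CPM in WT, 271, 147 and 215 in KO, 149, 210 and 208 in HxD and 141, 236 and 249 in V. Its groups overlap, and the log2 fold changes were 0.04 in KO (95% interval -0.40 to 0.49), -0.12 in HxD (-0.57 to 0.33) and 0.03 in V (-0.42 to 0.48), with edgeR adjusted p of 1, 0.988 and 1. Pdha1, an X-linked gene, had 171 to 180 CPM in WT and 133 to 152 in KO without overlap (log2 fold change -0.28, 95% interval -0.64 to 0.08), and 0.03 and -0.04 as log2 fold changes in HxD and V. Pdhb and Dld had log2 fold changes of -0.07 and -0.12 in KO, -0.01 and -0.21 in HxD, and 0.06 and 0.02 in V. For these 4 subunits the 95% intervals include 0 in each mutant and reach from -0.64 to 0.49. Mpc1 had 0.96 to 8.21 CPM and Mpc2 6.003 to 33.7 CPM over all libraries, and their intervals were wide, from -2.001 to 3.85 and from -1.07 to 1.21 on the log2 scale in KO.

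Pyruvate dehydrogenase kinases oppose that complex, and here the only member called by edgeR was found. Pdk1 had 193, 196 and 167 CPM in WT, 76.1, 114 and 94.9 in KO, 144, 185 and 99.7 in HxD and 126, 190 and 165 in V. All 3 KO libraries lay below all WT and all V libraries, and below HxD 1 and HxD 2, while HxD 3 fell within the KO range. The mean of 94.9 ± 18.8 CPM in KO (SD, n = 3) was 1.95-fold lower than 185 ± 16.1 CPM in WT (edgeR log2 fold change -0.96, 95% interval -1.40 to -0.53, adjusted p = 0.0461). In HxD the mean was 143 ± 42.6 CPM (log2 fold change -0.37, 95% interval -0.81 to 0.06, edgeR adjusted p = 0.62) and in V 160 ± 32.05 CPM (-0.21, 95% interval -0.64 to 0.23, edgeR adjusted p = 1). Of the germ cell markers, edgeR also called Dazl and Mael lower in KO, and Ddx4 lay below WT, with 465 to 591 against 772 to 981 CPM. Dnd1 and Tfap2c lay above WT, with 236 to 269 against 149 to 201 CPM and 120 to 135 against 48.2 to 96.3. The sum of the 9 markers other than Dazl overlapped between KO and WT, but such a sum can hide opposite differences of single markers. The part of these differences in the Pdk1 result was not tested.

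Whether KO differed from the other mutants in Pdk1 was tested directly, and neither difference passed the threshold. On the log2 scale HxD exceeded KO by 0.59 (95% interval 0.15 to 1.03, edgeR adjusted p = 0.884) and V exceeded KO by 0.76 (95% interval 0.32 to 1.20, edgeR adjusted p = 0.686). V against HxD gave 0.16 (95% interval -0.27 to 0.60, edgeR adjusted p = 1). The KO call lay close to the threshold. It ended without WT replicate 1 (edgeR adjusted p = 0.0924), without KO replicate 1 (0.173), without KO replicate 3 (0.104), with the stricter filter (0.0892), with WT and KO alone (0.0633) and with WT 3 and V 3 set aside (0.119), while DESeq2 gave adjusted p = 0.00667. The log2 fold change stayed between -1.12 and -0.83 over the 13 alternative settings.

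**Figure D4:**
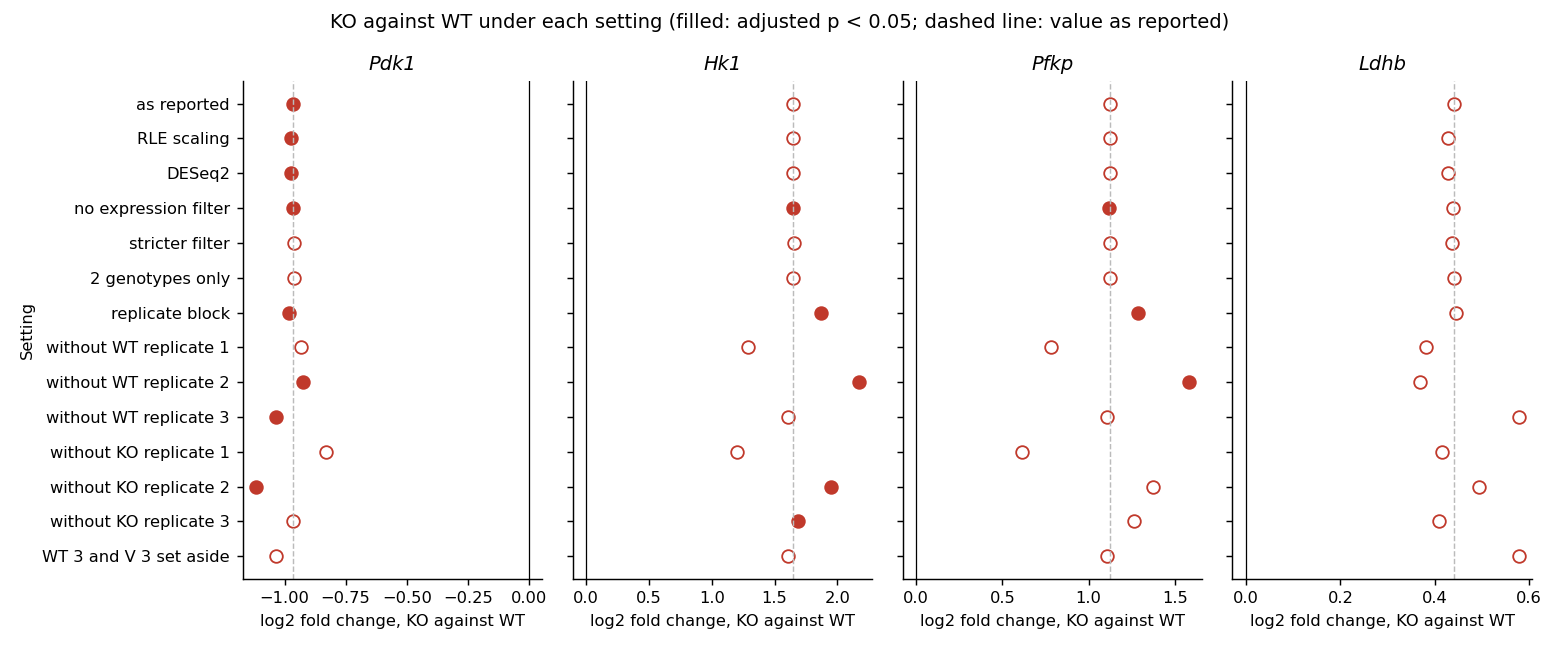
Log2 fold change of Pdk1, Hk1, Pfkp and Ldhb in KO against WT under each setting, with filled points where the adjusted p was under 0.05. Pdk1 stays between -1.12 and -0.83 and is filled in 7 of 13 alternatives, and Hk1, not called as reported, is filled in 5 of 13.

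The promoter window of Pdk1 (GRCm38.p6, chr2:71872974-71873273, plus strand) is printed because Pdk1 was the member called, with capitals for ACGTG or GCGTG on either strand.
Pdk1: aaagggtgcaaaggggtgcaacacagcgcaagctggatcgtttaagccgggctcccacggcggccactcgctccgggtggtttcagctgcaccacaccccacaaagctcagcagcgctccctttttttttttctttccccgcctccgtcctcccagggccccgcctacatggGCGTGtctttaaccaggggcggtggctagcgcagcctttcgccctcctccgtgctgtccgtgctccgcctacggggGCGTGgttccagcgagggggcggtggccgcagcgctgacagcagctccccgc
It holds 25 CpG dinucleotides, 2 matches to GCGTG and 0 to ACGTG. A further RefSeq window of the gene (chr2:71874654-71874953) holds 2 CpG dinucleotides and 0 matches. Windows were found for 31 of the 32 members, 46 in all, and Slc2a3 had none. Of these 31 members, 26 had ACGTG or GCGTG in at least 1 window, where 46.7% of all 27025 symbols did, and 22 had the GC box GGGCGG, where 38.2% did. The E-box CACGTG, which contains ACGTG, was found in 5 members, against 8.09% of all symbols. Member windows held a median of 20 CpG dinucleotides against 7 over all windows. Each motif searched contains CG itself, so its share also depends on the number of CpG dinucleotides. These matches describe letters and not bound sites.

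The other kinases were not called in any comparison. Pdk3, an X-linked gene, had 44.2 to 91.9 CPM in WT, 68.4 to 101 in KO, 47.5 to 94.98 in HxD and 88.8 to 96.3 in V, with log2 fold changes of 0.32, -0.03 and 0.38 and 95% intervals that include 0. Pdk2 was at 0 in 5 libraries and at most 6.67 CPM in the others, so no ratio to Pdk1 was formed. Pdk4, not a member, had 2.1 to 16.9 CPM over all libraries.

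Between mutants no member passed the threshold. EdgeR called 0 of 31 members in HxD against KO (background 0.0068% higher and 0% lower), in V against KO (0.0204% and 0%) and in V against HxD (0% and 0%). DESeq2 called 0 members in each, and over all genes it called more than edgeR, with counts given in the section on processing. At an unadjusted p under 0.05, 1 member was higher and 2 lower in HxD against KO (background 1.88% and 2.79%), 2 higher and 2 lower in V against KO (2.29% and 1.81%), and 1 higher and 0 lower in V against HxD (3.43% and 1.63%). These 3, 4 and 1 members stand beside 4.67%, 4.1% and 5.07% of all genes in either direction. Apart from those given above, these were Pfkp and Gapdh in HxD against KO, with log2 fold changes of -0.89 (SE 0.38, edgeR adjusted p = 0.884) and -0.41 (SE 0.19, edgeR adjusted p = 0.884). In V against KO they were Hk1 at -0.95 (SE 0.40, edgeR adjusted p = 1) and Slc2a3 at -0.52 (SE 0.21, edgeR adjusted p = 1). In HxD against KO 1 member lay wholly higher and 1 wholly lower, Pdha1 and Gapdh (background 3.69% and 5.64%). In V against KO 2 lay wholly higher, Pdk1 and Eno1, and 2 wholly lower, Slc16a3 and Gpi1 (5.15% and 5.19%). In V against HxD 2 lay wholly higher, Eno1 and Tpi1, and 0 wholly lower (4.79% and 3.2%). The log2 fold change was above 0 for 6 of 31 members in HxD against KO (47.6% of all genes), 12 in V against KO (50.6%) and 20 in V against HxD (52.3%). The median of the 31 members was -0.16 in HxD against KO, -0.04 in V against KO and 0.12 in V against HxD, beside -0.02, 0.01 and 0.02 over all genes.

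Among further genes of the pathway and its neighbours, edgeR called only a hypoxia factor, described last. Of 29 other glycolysis and pyruvate genes, 20 were tested and 0 were called by edgeR in any comparison with WT, with medians of 0.31 in KO, 0.11 in HxD and 0.14 in V. With p under 0.05 before adjustment there were 1 in KO, 2 higher and 2 lower in HxD, and 2 in V. Over all genes the shares in either direction were 8.3% in KO, 8.24% in HxD and 6.05% in V. Against WT the single call by DESeq2 was Slc2a12 in HxD. Bsg, the chaperone that brings monocarboxylate transporters to the membrane, had 229 to 265 CPM in WT, 323 to 350 in KO, 266 to 353 in HxD and 261 to 373 in V (log2 fold changes 0.43, 0.37 and 0.36, edgeR adjusted p of 0.428, 0.582 and 0.818). Tigar, which degrades fructose 2,6-bisphosphate, had 57.8 to 79.4 CPM in WT and 89.7 to 133 in HxD (log2 fold change 0.67, SE 0.22, edgeR adjusted p = 0.415). Slc2a12, a further sugar transporter, had 1.14 to 5.30 CPM in WT and was at 0 in all 3 HxD libraries (edgeR adjusted p = 0.38, DESeq2 adjusted p = 0.00151). Of the isozymes of spermatogenic cells, Pgk2 was at 0 in all 12 libraries, Ldhc had at most 5.11 CPM and Gapdhs at most 4.48.

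The pentose phosphate pathway branches off at glucose 6-phosphate, and edgeR and DESeq2 called 0 of its 9 genes in any comparison with WT. At an unadjusted p under 0.05 there was 1 in KO (8.3% of all genes) and 0 in HxD and V (8.24% and 6.05%). Tkt, the transketolase gene of that pathway, had 123 to 226 CPM in WT and 241 to 353 in KO, without overlap (log2 fold change 0.68, SE 0.20, edgeR adjusted p = 0.215). In HxD and V Tkt overlapped WT. Of 19 genes of the tricarboxylic acid cycle, edgeR called 0 in any comparison with WT, with 1 in each at an unadjusted p under 0.05. The single call by DESeq2 was Suclg1 in HxD (adjusted p = 0.0451). Suclg1, a succinyl-CoA ligase subunit, had 66.9 to 111 CPM in WT, 118 to 183 in HxD and 133 to 151 in V (log2 fold changes 0.73 and 0.61, edgeR adjusted p of 0.318 and 0.705). Suclg2, another subunit of that ligase, had 28.3 to 70.6 CPM in WT and 63.5 to 93.9 in KO (log2 fold change 0.59, edgeR adjusted p = 0.591). Only 3 of 7 gluconeogenesis genes were tested, and neither tool called any, with 0 at an unadjusted p under 0.05 beside those same shares of all genes.

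Hypoxia-inducible factors drive transcription of many glycolytic genes in other cells, and 14 of 15 listed factors and regulators were tested. Epas1, which encodes HIF-2 alpha, had 37.1, 51.6 and 42.4 CPM in WT and 1.4, 6.2 and 6.7 in KO, and edgeR called it lower in KO (log2 fold change -3.20, SE 0.51, adjusted p = 0.0018). It had 18.9 to 31.9 CPM in HxD and 18.0 to 47.8 in V, and was higher in V than in KO by the same test (log2 fold change 2.85, adjusted p = 0.0164). EdgeR did not call Epas1 in HxD against KO, but DESeq2 called it higher there (adjusted p = 0.00288). HxD lay wholly below WT, as did 7.22% of all genes, and neither tool called that difference. Mycl, a MYC family gene, had 54.4 to 92.9 CPM in WT and 120 to 164 in KO (log2 fold change 0.91, SE 0.22, edgeR adjusted p = 0.079). DESeq2 called Mycl higher in KO and in HxD. Lin28b, an RNA-binding regulator known to favour glycolysis, had 46.7 to 61.6 CPM in WT, 15.7 to 27.3 in KO, 4.45 to 27.0 in HxD and 23.2 to 54.7 in V (log2 fold changes -1.27, -1.45 and -0.52, edgeR adjusted p of 0.381, 0.401 and 0.989). Hif1a, which encodes HIF-1 alpha, had 209 to 268 CPM in WT, 199 to 304 in KO, 226 to 290 in HxD and 159 to 273 in V, overlapping throughout. Of 13 tested hypoxia targets outside the member list, 0 were called by edgeR in any comparison with WT, with 1 in each, Vegfa, at an unadjusted p under 0.05, and the medians were 0.32 in KO, 0.19 in HxD and 0.33 in V. Vegfa, the angiogenic growth factor gene, had 1.27 to 10.6 CPM in WT, 18.7 to 36.3 in KO, 13.6 to 29.6 in HxD and 8.36 to 29.9 in V, with log2 fold changes of 2.47, 2.12 and 1.79 and edgeR adjusted p of 0.103, 0.338 and 0.701. DESeq2 called Vegfa in KO (adjusted p = 0.0198). All 3 KO libraries had less Epas1, less Pdk1 and more Vegfa than every WT library, and a link between these was not tested. Of all genes, 8.15% lay wholly below and 8.13% wholly above WT in KO. The log2 fold change was above 0 for 9 of the 13 targets in KO, 9 in HxD and 13 in V, against 50.3%, 47.6% and 51% of all genes tested. The 13 in V include targets near the floor, such as Adm, at 0 in every WT library and at most 1.25 CPM in V. They also include targets that barely differed, such as Kdm3a, with means of 155 CPM in WT and 158 in V.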

How the data were processed

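Reads were counted per gene symbol in 12 libraries, 3 each of WT, KO, HxD and V, and the authors deposited whole-number counts without normalization. The submitters' processing notes name featureCounts 2.0.3, STAR 2.7.10b, SAMtools 1.9, Trim Galore 0.6.7 and FastQC, and the builds GRCm39 and mm10 without a role. Annotation, strand setting, read length and treatment of multiply matching reads were not given in the sources used here, and reads of overlapping or antisense genes cannot be told apart. Of the columns with values, 1 names no sample and was not used, and 1 further WT sample was not analysed here.

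Low counts were filtered with the filterByExpr defaults of edgeR 4.0.16, which left 14702 genes. Libraries were scaled by TMM and compared with its two-sided quasi-likelihood F-test in a single fit of the 12 libraries on genotype. P-values were adjusted by the Benjamini-Hochberg method across the 14702 genes and called under 0.05. Standard errors were derived from the F statistic, and intervals are 95%. The common biological coefficient of variation was 0.932. Ratios used counts plus 0.5 and an exact two-sided permutation test. Tested on simulated data for KO against WT with 13678 genes, the fit found 42% of the genes altered 2-fold and 78% of those altered 4-fold, all averaging at least 8 CPM, and 9 of its 129 calls were false.

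Values are given in full for members called in any comparison, with an unadjusted p under 0.05 against WT, or highest in their role, and for at most 3 genes of each further list, called ones first and then by the smallest p. Other members with separate ranges, Pgk2 and Pdk4 were named after their values were seen. The members and lists were chosen with earlier results of these data known. Promoter windows come from RefSeq (GRCm38.p6). Alternatives were RLE scaling, DESeq2 1.42.0, no or a stricter filter (mean of 8 CPM), fits on 2 genotypes, a replicate block, leaving out each library and, chosen after seeing the data, setting WT 3 and V 3 aside.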

Additional observations from a re-analysis of the deposited data

How the results depend on the processing

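Of the members, Pdk1 in KO kept its direction in all 13 alternatives and was called in 7, with adjusted p from 0.00104 to 0.173. Hk1 in KO was called in 5 of 13 and Pfkp in KO in 3. Members called in KO numbered 3 with no filter, 0 with the stricter filter, 0 with 2 genotypes fitted, 0 with WT 3 and V 3 set aside, and 0 to 3 with single libraries left out. In HxD 1 was called with no filter. In V against KO 0 to 1 were called with single libraries left out, the 1 being Hk1 without V replicate 2. The cause of these shifts was not tested.

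Counts over all genes moved more. DESeq2 called 211 genes in KO, 215 in HxD and 84 in V against WT, and 99 in HxD against KO, 69 in V against KO and 112 in V against HxD. No filter gave 148, 67, 32, 8, 21 and 5 in the same order. The stricter filter gave 15 in KO and 3 in HxD, 2 genotypes 12 and 2 and, in V against KO, 0, and setting WT 3 and V 3 aside 11, 2 and 0. Leaving out single libraries gave 15 (without WT replicate 1) to 95 (without WT replicate 2) in KO, 1 (without HxD replicate 3) to 47 (without HxD replicate 1) in HxD, 0 to 10 (without WT replicate 2) in V, 1 to 14 (without HxD replicate 1) in HxD against KO, 2 to 18 (without V replicate 2) in V against KO and 0 to 11 (without HxD replicate 1) in V against HxD.

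The labels do not say what libraries of the same replicate number share. Deviations from group means of the 18 same-numbered pairs correlated from -0.06 to 0.09, with a median of 0.007 against -0.001 for other pairs. Of the 12 libraries, 5 correlated best with their own number. Such correlations cannot show whether libraries shared a litter, sort or batch, and this was not tested. With the replicate block the counts were 104 in KO, with 3 members, 45 in HxD, 8 in V, 8 in HxD against KO, 16 in V against KO and 2 in V against HxD. Without the block they were 32, 5, 0, 1, 3 and 0 in the same order.

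Small differences changed sign as single libraries were left out. On the log2 scale Dlat ranged from -0.18 to 0.25 in KO, from -0.21 to 0.062 in HxD and from -0.12 to 0.26 in V, Slc2a3 from -0.19 to 0.18 in HxD and from -0.31 to 0.014 in V, Aldoa in HxD from -0.014 to 0.24, Pkm in HxD from -0.037 to 0.19, and Pdk1 in V against HxD from -0.037 to 0.39. Ratios ranged from -0.062 to 0.13 for Slc2a3 to Slc2a1 in V, from -0.054 to 0.61 for Pfkp to Pfkl in HxD, and for Ldhb to Ldha from -0.19 to 0.32 in HxD and from -0.66 to 0.15 in V. With WT 3 and V 3 set aside, Pkm and Dlat in HxD were -0.036 and 0.062 and Slc2a3 in V 0.018. With 3 libraries a group, low-count members such as Mpc1, Aldoc, Slc16a3 and Pdk2 had intervals too wide to show a change.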
